A study of Mus musculus with 6 samples.

Results

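The genes described here are 28 genes of sterol synthesis, of its control by the SREBP and Insig proteins, and of cholesterol efflux, chosen by name. A gene was measured where the array annotation paired a probe set with its symbol alone, and its brightest probe set over the 6 arrays stood for it. That held for 24 of the 28 genes, among 30702 genes named on the array. Tm7sf2, Srebf1 and Mbtps2 share their probe sets with another symbol (Vps51, Mir6922 and Yy2), and Acat2 was not matched, so these 4 genes were not analysed here. Each measured gene had 1 probe set.

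The tissue was subcutaneous white fat of the groin, from male C57BL/6 mice aged 2 months, and its RNA was measured on whole-transcript microarrays. The 3 mice of the KO group carried floxed Tfg alleles (TFG f/f) and Adipoq-ERT2Cre, a Cre recombinase that tamoxifen activates and that the adiponectin promoter drives in fat cells. The 3 mice of the WT group are labelled wild type, and per the series design carried the floxed alleles without Cre. Both groups received tamoxifen by intraperitoneal injection for 5 days and were sampled 2 weeks later. Other cells of the tissue, such as endothelial cells and macrophages, are not targets of this promoter and kept the floxed alleles.

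Cells make cholesterol from acetyl-CoA through mevalonate, farnesyl diphosphate, squalene and lanosterol. The SREBP transcription factors drive the genes of this route. They are made as membrane proteins of the endoplasmic reticulum, where SCAP carries them to the Golgi in COPII vesicles when sterols are low, and where INSIG proteins hold SCAP back when sterols are high. In the Golgi the proteases encoded by Mbtps1 and Mbtps2 release the active factor. Sterol excess acts through oxysterols and the liver X receptors (LXR), which switch on cholesterol exporters such as ABCA1 and ABCG1. White fat stores much of the body's free cholesterol and makes rather little of it. TFG, whose gene carries the floxed alleles, organises the sites where COPII vesicles leave the endoplasmic reticulum.

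Tfg itself had a log2 signal, as deposited, of 7.97, 7.94 and 7.91 in WT and of 7.99, 8.21 and 8.03 in KO. It was thus not lower in KO, and the difference, KO minus WT, was 0.14 ± 0.11 (SE, limma adjusted p = 0.345). The sources used here do not say whether the probe set lies in the deleted part of Tfg, so whether it can check the labels is unknown. KO and WT below mean the arrays so labelled. Array medians lay between 6.96 and 7.02 in WT and between 6.47 and 6.76 in KO. The median difference of all 65956 probe sets was -0.37, and every difference below stands beside that shift. Some values are also given after each array was centred on its own median. Replicate 2 of KO stood apart, at a correlation of 0.960 and 0.965 with the other KO arrays, which correlated at 0.986 with each other. Skeletal muscle markers, averaged over 10 genes, read 9.06 and 10.99 on KO 1 and KO 2, but 6.95 on KO 3 and at most 7.07 on WT arrays. Sterol genes that passed are also given without KO 2. KO 1, which also read high for these muscle markers, stays in those values.

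Only 4 of the 24 measured sterol genes passed limma's test after Benjamini-Hochberg adjustment over all probe sets (adjusted p under 0.05). Insig1, Abca1 and Fdft1 rose and Fdps fell. That is 12.5% of the genes rising, where 5.32% of all probe sets and 10.7% of 19217 protein-coding genes rose, and 4.17% falling, where 15.6% of all probe sets and 10.2% of protein-coding genes fell. Among all named genes 8.91% rose and 13.0% fell, 21.9% in all, beside 20.9% of all probe sets and 20.8% of protein-coding genes. The split over all probe sets turned with scaling, from 3509 higher and 10282 lower as deposited to 5146 and 3259 after centring and to 4032 and 2212 after quantile normalization. At an unadjusted p under 0.05, 8 of the 24 sterol genes passed, where 31589 of all 65956 probe sets did. The median difference of the 24 genes was -0.04, against -0.18 for protein-coding genes, and it was 0.29 after centring, against 0.15. Among the 16 measured enzymes from Hmgcs1 to Dhcr7, 1 rose, 1 fell and 14 did not pass, with a median of -0.10, or 0.23 after centring. The 3 KO values lay all above the 3 WT values for 8 of the 24 genes, where the same held for 11.1% of all probe sets, 18.5% of named and 23.3% of protein-coding genes. They lay all below for 9 genes, where the same held for 44.9%, 43.4% and 41.0%.

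**Figure D1:**
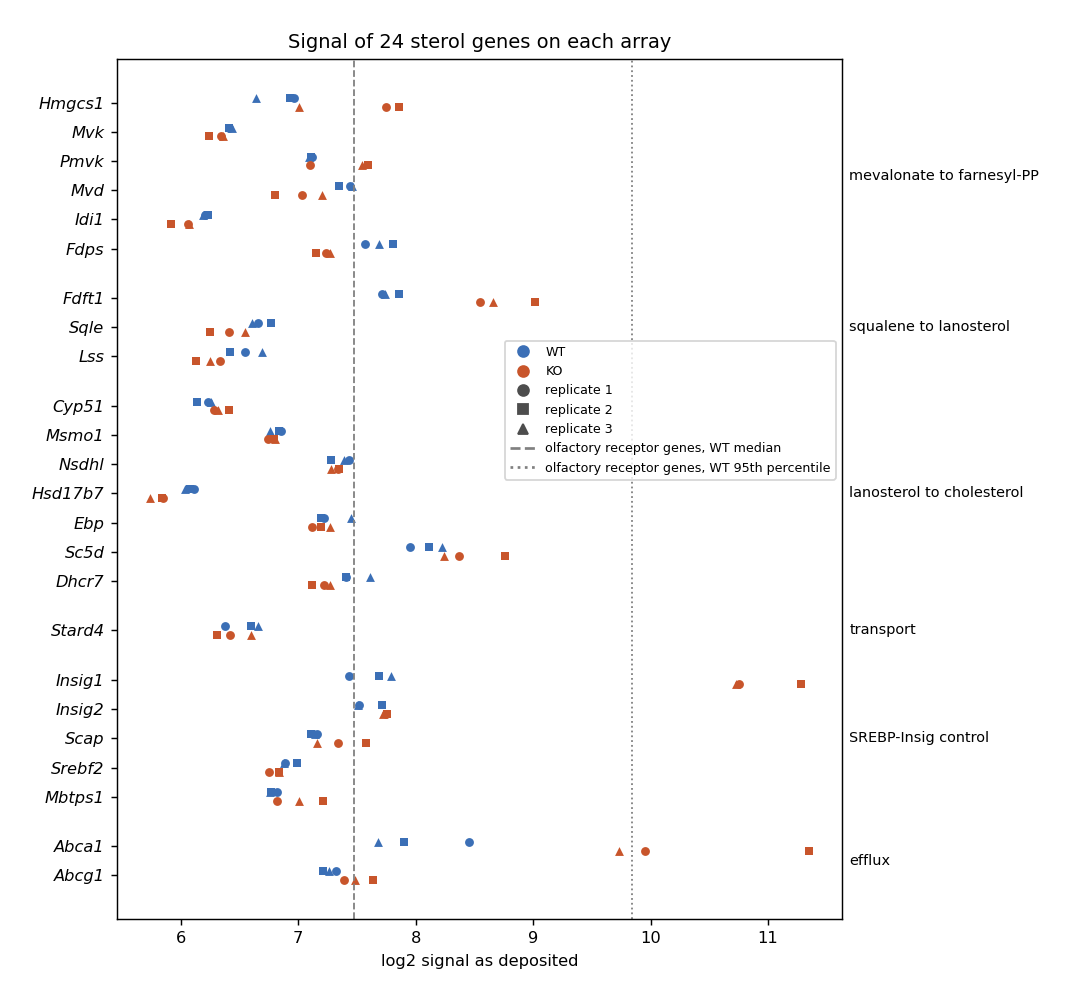
Log2 signal (horizontal axis) of the 24 measured sterol genes on each of 3 WT and 3 KO arrays, with a marker shape for each replicate number. Vertical lines mark the median (7.47) and the 95th percentile (9.84) of olfactory receptor genes on WT arrays, and among the sterol genes only 3 KO values of Insig1 and 2 of Abca1 lie above 9.84.

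The sterol genes read low on these arrays. Their WT means ran from 6.08 for Hsd17b7 to 8.09 for Sc5d, with a median of 7.12. For comparison, 1082 olfactory receptor genes, a class used mostly in the nose, had a WT median of 7.47 and a 95th percentile of 9.84. On WT arrays 7 of the 24 genes lay above that median and 0 above that percentile. On KO arrays, where the percentile was 8.68, Insig1, Abca1 and Fdft1 (8.74) lay above it. The olfactory receptor genes differed by a median of -0.82 between the groups. No detection calls were available, so folds of genes near this level are uncertain and whether a gene was above background on WT arrays was not tested.

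Insig1 moved most of all the sterol genes. It encodes an INSIG protein of the endoplasmic reticulum membrane that holds SCAP back and thereby damps sterol synthesis, and it is itself a target of SREBP. Its signal was 7.43, 7.69 and 7.79 in WT and 10.75, 11.28 and 10.73 in KO. The groups were far apart, with every KO value about 3 units above every WT value. The rise of 3.28 ± 0.20 (SE), or 9.74-fold, passed limma's test (adjusted p = 0.0305), had the third smallest p of 65956 probe sets, and ranked 69th among 19217 protein-coding genes by size. Without KO 2 it was 3.10 (adjusted p = 0.0156). Markers of fat cells moved with the rises of Insig1, Abca1 and Fdft1: 11 of 14 adipocyte markers rose and 0 fell, with a median of 2.77. Their mean signal was 8.56 to 10.11 on WT arrays and 11.80 to 13.17 on KO arrays, and their part in these rises was not tested.

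Insig2 encodes the second INSIG protein, which is not a usual SREBP target. It read 7.52, 7.71 and 7.51 on WT arrays and 7.75, 7.76 and 7.72 on KO arrays. The KO values lay just above the WT values, and the difference of 0.16 ± 0.11 (SE) did not pass (adjusted p = 0.263). Within each array Insig1 minus Insig2 went from 0.06 ± 0.20 (SD, n = 3) in WT to 3.18 ± 0.30 (SD, n = 3) in KO. That is a gain of 3.12. A 2-sided exact permutation test gave p = 0.1, below which 3 against 3 arrays cannot go.

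Bases before the RefSeq starts of the INSIG pair are shown because this pair had the largest gain among the 4 pairs compared within arrays. The Insig1 stretch is the 250 bases at chr5:28071162-28071411 on the plus strand (GRCm38.p6, RefSeq). Insig2 has 3 listed starts, all within its annotated span. Of the 250 bases before the outermost, 73 lie inside that span, and the 177 bases outside it are printed, at chr1:121332663-121332839 on the minus strand. Both stretches lie outside the annotated genes. Letters run 5′ to 3′ along the gene, and capitals mark matches, on either strand, to the CCAAT box bound by NF-Y, the GC box GGGCGG bound by Sp1 and the E-box CACGTG.
Insig1: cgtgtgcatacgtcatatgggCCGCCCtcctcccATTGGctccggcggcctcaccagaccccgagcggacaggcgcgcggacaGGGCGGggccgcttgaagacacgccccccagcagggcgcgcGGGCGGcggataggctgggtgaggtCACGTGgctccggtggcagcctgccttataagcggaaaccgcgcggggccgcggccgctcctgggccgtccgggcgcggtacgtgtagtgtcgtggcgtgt
Insig2: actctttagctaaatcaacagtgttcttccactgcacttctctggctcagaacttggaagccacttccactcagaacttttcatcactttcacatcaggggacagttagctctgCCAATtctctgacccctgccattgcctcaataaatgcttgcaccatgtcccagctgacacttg
Insig1 held 3 GC boxes, a CCAAT box and an E-box at 101 to 96 bases before the start. The printed Insig2 stretch held 1 CCAAT box. Inside the annotated gene, 2 more CCAAT boxes lay before the outermost start and 1 GC box before each of the other starts, and no E-box was found. Of 27025 genes, 37.5% held a CCAAT box, 35.4% a GC box and 6.86% an E-box in the 250 bases before a start. Such matches describe letters and are not shown to be sites in use.

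The other measured genes of SREBP activation differed little. Scap, the SREBP escort, read 7.16, 7.11 and 7.14 on WT arrays and 7.34, 7.58 and 7.16 on KO arrays. Its KO 3 value equalled the highest WT value, so the groups overlapped, and the difference of 0.22 ± 0.14 (SE) did not pass (adjusted p = 0.229). Srebf2, which encodes the SREBP most tied to cholesterol synthesis, read 6.89, 6.99 and 6.88 on WT arrays and 6.75, 6.84 and 6.84 on KO arrays. Every KO value was lower, but the difference was only -0.11 ± 0.10 (adjusted p = 0.406), and it was 0.22 after centring. Mbtps1, which encodes the site-1 protease, read 6.82, 6.77 and 6.76 on WT arrays and 6.82, 7.21 and 7.01 on KO arrays, touching at 6.82. Its difference was 0.23 ± 0.13 (adjusted p = 0.205). Of the 5 measured genes of this group 1 rose, 0 fell and 4 did not pass. Of all probe sets 5.32% rose and 15.6% fell, and of protein-coding genes 10.7% rose and 10.2% fell.

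The mevalonate steps up to farnesyl diphosphate had no common direction: 0 of 6 genes rose, 1 fell and 5 did not pass. The fall makes up 16.7%, close to the 15.6% of all probe sets that fell, while 5.32% of all probe sets rose. Fdps, which encodes farnesyl diphosphate synthase, read 7.57, 7.81 and 7.69 on WT arrays and 7.24, 7.15 and 7.27 on KO arrays. The groups did not overlap. Fdps fell by 0.47 ± 0.12 (SE), which is 1.39-fold, and just passed (limma adjusted p = 0.0430). It was close to the shift of the median probe set, it was -0.14 after centring (adjusted p = 0.512) and -0.23 after quantile normalization (adjusted p = 0.226). Fdps also did not pass when any of the 6 arrays was left out (adjusted p from 0.0609 without KO 2 to 0.125 without WT 3).

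Hmgcs1, which encodes an HMG-CoA synthase early in the route and is a classical SREBP target, had the largest positive difference among the 5 mevalonate genes that did not pass. It read 6.96, 6.93 and 6.64 on WT arrays and 7.75, 7.86 and 7.01 on KO arrays. KO 3 stood apart from KO 1 and KO 2 and lay only just above the WT values. The difference was 0.70 ± 0.25 (SE, adjusted p = 0.0803), and 1.03 after centring (adjusted p = 0.0558). It was 0.54 without KO 2 (adjusted p = 0.183) and 0.40 with weights per array (adjusted p = 0.205). KO 1 and KO 2 were also the arrays that read high for muscle markers, and the part of these markers was not tested. Mvd, the mevalonate diphosphate decarboxylase gene, read 7.44, 7.35 and 7.46 on WT arrays and 7.03, 6.80 and 7.20 on KO arrays. All its KO values were lower, at a difference of -0.41 ± 0.14 (adjusted p = 0.0711) that was -0.08 after centring. Pmvk, the phosphomevalonate kinase gene, read 7.12, 7.11 and 7.09 on WT arrays and 7.10, 7.59 and 7.54 on KO arrays, where KO 1 lay within the WT range (difference 0.30 ± 0.16, adjusted p = 0.170). The mevalonate kinase gene Mvk and the isomerase gene Idi1 differed by -0.11 and -0.19 (adjusted p = 0.411 and 0.181), and by 0.22 and 0.14 after centring.

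Hmgcs1 was the only 1 of 23 sterol genes with a RefSeq stretch to hold the core letters TCACNCCAC of the sterol regulatory element, which SREBP binds, against 1.23% of 27025 genes. Other forms of the element, and bases outside the 250 before each start, were not searched, so the other genes may hold one. The stretch lies at chr13:119690101-119690350 on the plus strand (GRCm38.p6), again the 250 bases before the gene start, and is shown for that match at 137 to 129 bases before the start. Capitals mark it, together with 3 CCAAT boxes and 2 GC boxes on either strand.
Hmgcs1: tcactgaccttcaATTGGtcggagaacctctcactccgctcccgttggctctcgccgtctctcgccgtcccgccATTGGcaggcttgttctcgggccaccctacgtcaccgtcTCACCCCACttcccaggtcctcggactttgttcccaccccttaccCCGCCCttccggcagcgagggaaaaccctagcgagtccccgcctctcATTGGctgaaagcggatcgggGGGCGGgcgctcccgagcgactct
CCAAT boxes stood in all 14 synthesis enzyme genes that had a stretch and in 18 of 23 sterol genes, against 37.5% of 27025 genes. Those of Dhcr7 lie inside its annotated gene. The CCAAT box was not alone in this. GC boxes stood in 13 of the 14 enzyme genes and 21 of the 23 sterol genes, against 35.4%. E-boxes stood in 3 and 6 of them, against 6.86%. Of these 14 enzyme genes 13 were measured, and 0 of them passed limma's test in either direction, beside 20.9% of all probe sets. The enzyme genes that passed, Fdft1 and Fdps, had no stretch, so this 0 depends on which genes had one. At an unadjusted p under 0.05, 4 of the 13 passed (1 higher, 3 lower), where 31589 of 65956 probe sets did. Of the 31 stretches searched, 15 reach into the annotated span of their gene from a start within it. Fdft1, Fdps, Sqle, Stard4 and Abcg1 had no stretch in the table.

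At the branch from farnesyl diphosphate into sterols, Fdft1 rose. It encodes squalene synthase, the enzyme that commits the route to sterols. Fdft1 read 7.71, 7.86 and 7.74 on WT arrays and 8.55, 9.02 and 8.66 on KO arrays. The groups were clearly apart, with KO 2 highest. The rise of 0.97 ± 0.15 (SE), or 1.96-fold, passed limma's test (adjusted p = 0.0354), and without KO 2 it was 0.83 (adjusted p = 0.0208). Fdft1 minus Fdps, the step that follows against the step before, went from 0.08 ± 0.05 (SD, n = 3) to 1.52 ± 0.30 (SD, n = 3) within arrays (exact permutation p = 0.1).

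The next enzymes did not pass the test. Sqle, the squalene epoxidase gene and a slow step of the route, read 6.66, 6.77 and 6.61 on WT arrays and 6.41, 6.25 and 6.55 on KO arrays. Lss, the lanosterol synthase gene, read 6.55, 6.42 and 6.69 on WT arrays and 6.33, 6.13 and 6.25 on KO arrays. Every KO value was lower in both genes, but the differences of -0.28 ± 0.13 and -0.32 ± 0.12 (SE) did not pass (adjusted p = 0.128 and 0.0964). After centring they were 0.05 and 0.01. Sqle minus Lss stayed at 0.13 ± 0.22 (SD, n = 3) in WT and 0.17 ± 0.12 in KO, with overlapping values and an exact permutation p of 0.9. Adjusted over the 4 pairs compared, the exact p values were 0.133 for the INSIG, transporter and Fdft1 pairs and 0.9 for this pair.

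**Figure D2:**
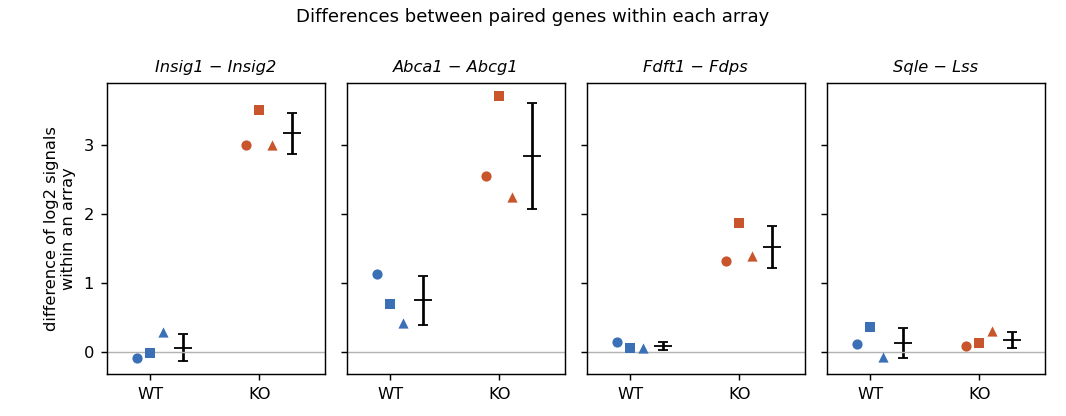
Difference of log2 signals between paired genes within each array (vertical axis), for 3 WT and 3 KO arrays, with black bars for mean and SD. The level of a difference depends on the probe sets and has no meaning of its own, while its gain from WT to KO was 3.12 for Insig1 minus Insig2, 2.09 for Abca1 minus Abcg1, 1.44 for Fdft1 minus Fdps and 0.04 for Sqle minus Lss.

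From lanosterol to cholesterol, 0 of 7 measured genes rose or fell by limma's test, beside 20.9% of all probe sets. Of these 7 genes 1 passed at an unadjusted p under 0.05 (Hsd17b7), where 31589 of 65956 probe sets did. Sc5d, the lathosterol oxidase gene and the brightest sterol gene on WT arrays, read 7.95, 8.11 and 8.22 there and 8.37, 8.76 and 8.24 on KO arrays. All KO values lay above the WT values, KO 3 by only 0.02, and the difference of 0.36 ± 0.17 (SE) did not pass (adjusted p = 0.139). Dhcr7, which encodes the enzyme of the last step to cholesterol in the Kandutsch-Russell route, and Hsd17b7, a 3-ketosteroid reductase gene, had lower values on every KO array, at -0.27 ± 0.12 and -0.27 ± 0.10 (adjusted p = 0.113 and 0.0912). Both lay within 0.1 of 0 after centring, at 0.06 and 0.06. Cyp51, the lanosterol demethylase gene, differed by 0.13. Msmo1, Nsdhl and Ebp, for the removal of the C-4 methyl groups and the shift of the sterol double bond, differed by -0.04, -0.04 and -0.09 with overlapping groups (adjusted p from 0.548 to 0.758). The transport protein gene Stard4, a known SREBP-2 target, differed by -0.10 ± 0.14 and overlapped too (adjusted p = 0.552).

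**Figure D3:**
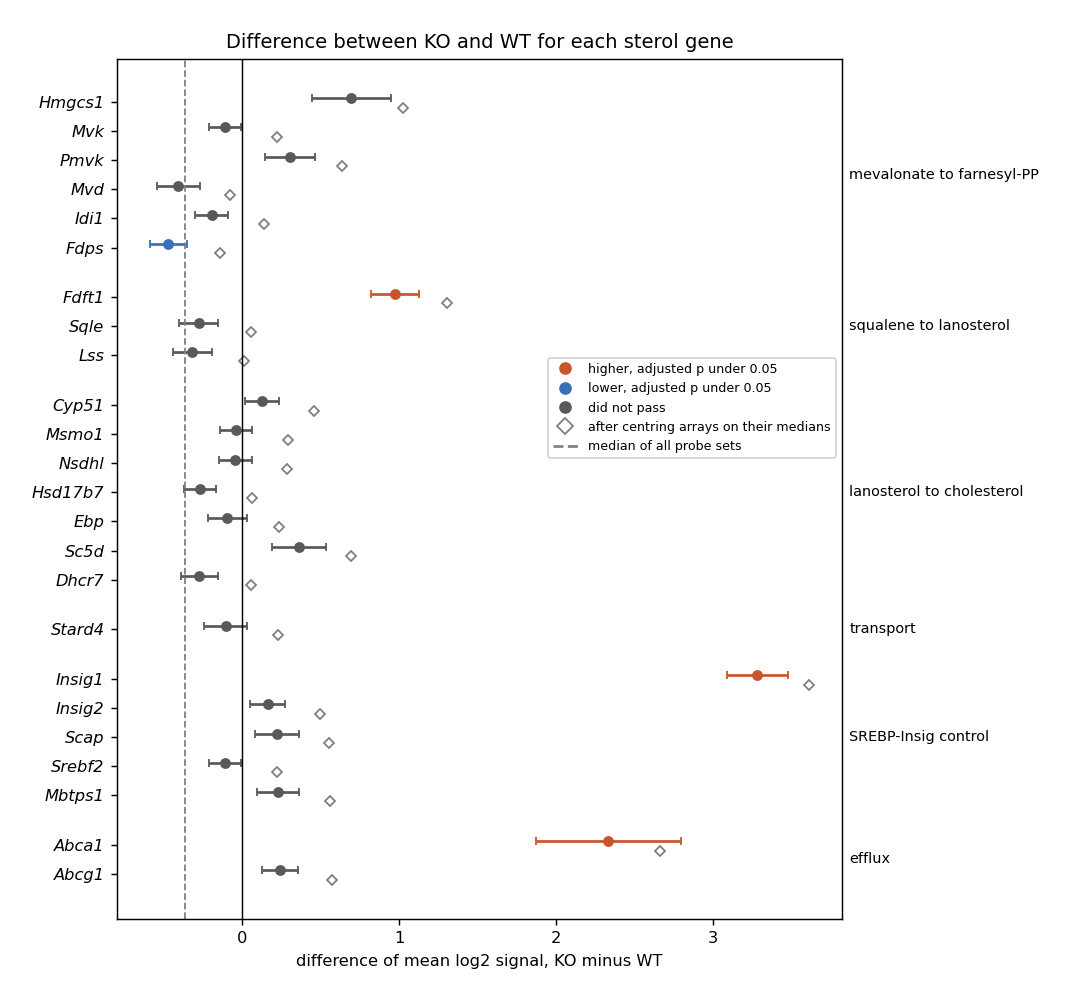
Difference of mean log2 signal, KO minus WT (horizontal axis, bars are SE), for the 24 sterol genes as deposited (filled) and with every array centred at its own median (open). Insig1, Abca1 and Fdft1 stand at 3.28, 2.33 and 0.97, and the other 21 genes lie between -0.47 and 0.70.

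Of the cholesterol exporters, Abca1 rose. It loads cellular cholesterol and phospholipid onto apolipoprotein A-I and is a classical LXR target. Abca1 read 8.45, 7.90 and 7.68 on WT arrays and 9.95, 11.35 and 9.73 on KO arrays. The groups did not overlap, although the KO arrays spread widely and KO 2 was more than 1 unit above the others. The rise of 2.33 ± 0.46 (SE), or 5.04-fold, passed limma's test (adjusted p = 0.0362), and without KO 2 it was 1.83 (adjusted p = 0.0236).

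Abcg1, which exports cholesterol to high-density lipoprotein and is also an LXR target, read 7.32, 7.21 and 7.26 on WT arrays and 7.39, 7.64 and 7.48 on KO arrays. All KO values were higher, but the difference of 0.24 ± 0.12 (SE) did not pass (adjusted p = 0.146). Within arrays Abca1 minus Abcg1 went from 0.75 ± 0.36 (SD, n = 3) to 2.84 ± 0.77 (SD, n = 3), with an exact permutation p of 0.1. Macrophages are rich in both transporters. Of 15 macrophage markers 4 rose (Lyz2, Mertk, Fcer1g and C1qb, by 1.61, 1.47, 0.87 and 0.80), 1 fell (Itgam, by 0.44) and 10 did not pass, and after centring 6 rose and 0 fell. Their mean signal was 7.44 to 7.51 on WT arrays and 7.78 to 8.01 on KO arrays. The markers Adgre1, Cd68 and Csf1r differed by -0.03, -0.01 and 0.13 without passing, and by 0.30, 0.32 and 0.46 after centring, again without passing. C1qa, Tyrobp and Mrc1 differed by 0.73, 0.48 and 0.28 as deposited, with all KO values above the WT values, but did not pass. Of the 15 differences 10 were positive and 5 negative. These markers were named after their values were seen, and their part in the rise of Abca1 was not tested. In whole tissue, fewer cells of a type and less RNA per cell cannot be told apart.

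The 250 bases before the listed Abca1 start are described because they held a match to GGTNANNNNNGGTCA, a loose form of the DR4 repeat to which LXR binds. The match read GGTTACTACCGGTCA on the strand opposite to the gene, at 67 to 53 bases before that start. It lies inside the annotated Abca1 gene, whose RefSeq span covers 93 of the 250 bases. Among the sterol genes Abca1 and Srebf1 held such a match, against 0.189% of 27025 genes, and Srebf1 was not measured. The Srebf1 match also lies inside its annotated gene. The 157 bases outside the Abca1 span are printed, at chr4:53159989-53160145 on the minus strand (GRCm38.p6, RefSeq), with a GC box and an E-box in capitals.
Abca1: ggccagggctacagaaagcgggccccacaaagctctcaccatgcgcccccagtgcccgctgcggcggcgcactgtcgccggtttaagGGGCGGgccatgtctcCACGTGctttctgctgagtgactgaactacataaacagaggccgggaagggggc
The match does not show that LXR bound there, and other factors were not searched for.

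Leaving out WT 1, WT 2, WT 3 or KO 3 left 0 probe sets called on the whole array by limma, with 23757, 25102, 21579 and 28697 at an unadjusted p under 0.05. Without them Insig1 had an adjusted p of 0.0997, 0.0824, 0.114 and 0.0624 at rises of 3.18, 3.31, 3.36 and 3.38. For Fdft1 the adjusted p was 0.0997, 0.0824, 0.114 and 0.0624 at rises of 0.94, 1.02, 0.96 and 1.01, and for Abca1 it was 0.0997, 0.0850, 0.114 and 0.0624 at rises of 2.55, 2.28, 2.17 and 2.64. The sizes thus moved little while the calls ended. Of 15 housekeeping genes 8 rose and 0 fell, with a median difference of 1.18. Of the 24 sterol genes Insig1 and Abca1 exceeded it, whereas the rise of Fdft1 lay below it.

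Of 70 measured genes in 6 lists of sterol and SREBP biology 25 rose and 0 fell, and 45 did not pass, with a median difference of 0.35. At an unadjusted p under 0.05, 34 were higher and 4 lower, where 31589 of 65956 probe sets passed in either direction. Without KO 2, 27 rose and 0 fell, and the rises of Fasn, Acaca, Pgrmc1 and Cd36, among those described next, were 5.59, 2.92, 1.29 and 4.79. The rises make up 35.7%, beside 5.32% of all probe sets and 10.7% of protein-coding genes. Of the 15 housekeeping genes a larger share rose, 53.3%, and their median difference of 1.18 was larger too. Many of these lists hold genes typical of fat cells. The part of the adipocyte markers given above in these results was not tested either.

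Lipogenic genes that SREBP-1 is known to drive had the highest median of the 6 lists, at 1.86, with 8 of 15 rising and 0 falling. The fatty acid synthase gene Fasn read 7.41, 9.37 and 7.28 on WT arrays and 14.08, 15.97 and 13.15 on KO arrays, a rise of 6.38 ± 0.87 (SE, adjusted p = 0.0354). The elongase gene Elovl5, the carboxylase gene Acaca and the lipogenic regulator gene Thrsp rose too, by 2.18, 3.73 and 4.29 (adjusted p = 0.0354, 0.0356 and 0.0354). These 4 genes were named for the smallest p values of the list, a choice that favours groups that do not overlap. In the whole list of 15, the KO values lay all above the WT values for 11 genes. The same held for 11.1% of all probe sets and 23.3% of protein-coding genes, but for 12 of the 15 housekeeping genes. Of those housekeeping genes 8 rose and 0 fell, as many as in this list. Whether this list differed from the enzymes of sterol synthesis was not tested.

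Of 9 measured LXR and efflux genes other than Abca1 and Abcg1, 4 rose and 0 fell, with a median of 0.25. Mylip encodes the LXR-induced ubiquitin ligase that degrades lipoprotein receptors. It read 7.67, 7.93 and 7.38 on WT arrays and 10.31, 10.55 and 9.94 on KO arrays, a rise of 2.61 ± 0.22 (SE, adjusted p = 0.0346). The phospholipid acyltransferase gene Lpcat3, the apolipoprotein gene Apoe and the phospholipid transfer protein gene Pltp rose by 1.01, 1.59 and 0.71 (adjusted p = 0.0354, 0.0354 and 0.0420). The receptor gene Nr1h3 itself, named after its value was seen, differed by 0.18 without passing (adjusted p = 0.215), and by 0.51 after centring. Abcg4, Abcg5 and Abcg8, likewise named after their values were seen, differed by -0.35, -0.42 and -0.33 without passing (adjusted p from 0.0511 to 0.0946). These 3 differences were close to the shift of the median probe set. After centring they were -0.02, -0.09 and -0.003 (adjusted p from 0.64 to 0.99).

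Cholesterol uptake, storage and traffic genes had a median of 0.45, with 9 of 20 rising and 0 falling. The lipoprotein receptor gene Scarb1 rose by 1.37 ± 0.19 (SE), the caveolin gene Cav1 by 3.12 ± 0.43, the scavenger receptor gene Cd36 by 5.07 ± 0.77 and Npc2, for cholesterol exit from lysosomes, by 1.41 ± 0.22 (adjusted p = 0.0354 for each). Endothelial cells also express Cav1, Cd36 and Scarb1, and 9 of 10 endothelial markers rose and 0 fell. The mean signal of these markers was 7.13 to 7.33 on WT arrays and 8.56 to 9.22 on KO arrays, and its part in these rises was not tested.

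In the branches from mevalonate products to other isoprenoids 2 of 9 genes rose and 0 fell, with a median of 0.15. Nus1, a subunit of the dehydrodolichyl diphosphate synthase, rose by 1.39 ± 0.20 (SE), and Fnta, the shared alpha subunit of protein prenyltransferases, by 1.22 ± 0.26 (adjusted p = 0.0354 and 0.0378). Coq2 and Pggt1b differed by 0.36 and 0.17 without passing. Of 12 genes for sterol sensing and the degradation of INSIG and its clients 2 rose and 0 fell, with a median of 0.08. These were the chaperone gene Hsp90b1, whose protein belongs to the general folding machinery of the endoplasmic reticulum, at 2.49 ± 0.41, and Pgrmc1, an INSIG-binding membrane protein gene, at 1.72 ± 0.39 (adjusted p = 0.0354 and 0.0395). Erlin1 and Spring1 differed by 0.52 and 0.34 without passing. Of 5 oxysterol enzyme genes 0 rose and 0 fell by limma's test, with a median of -0.27, or 0.06 after centring. Of these 5 genes 3 passed at an unadjusted p under 0.05 (2 higher, 1 lower), where 31589 of 65956 probe sets did. Cyp27a1 and Hsd3b7 read higher by 0.92 and 0.36, and Ch25h and Cyp7b1 differed by -0.46 and -0.31, with adjusted p from 0.0608 to 0.132. Without KO 2 Cyp27a1 passed, at 0.58 (adjusted p = 0.0411).

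**Figure D4:**
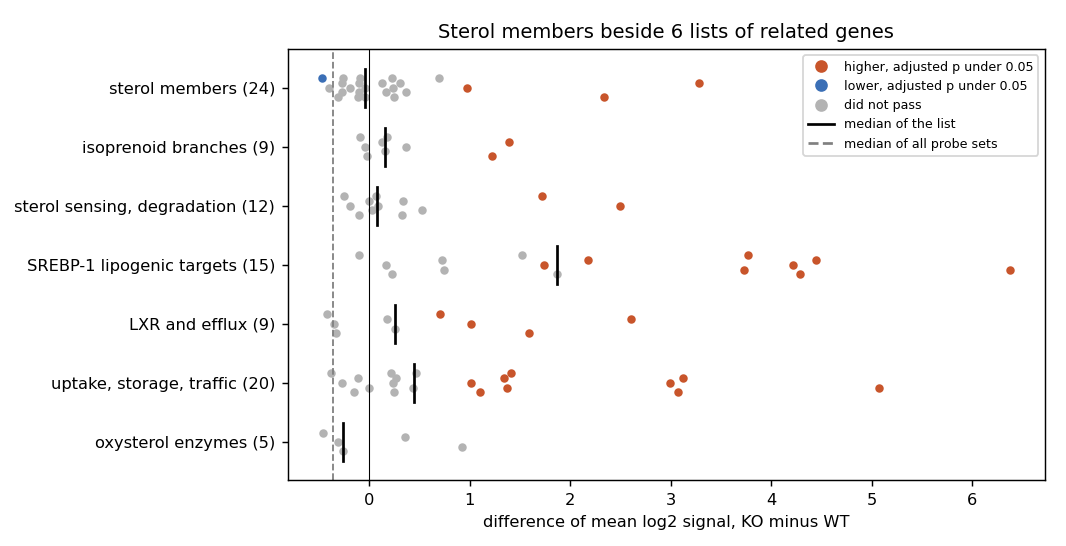
Difference of mean log2 signal, KO minus WT (horizontal axis), of each sterol gene and of each gene in 6 related lists, with the number measured in brackets and a black bar at the median. The sterol genes centre on -0.04 with 3 rises and 1 fall, and SREBP-1 lipogenic targets centre on 1.86 with 8 rises of 15.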

How the data were processed

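Per the labels' protocols, a GeneChip WT Pico kit put biotin on the total RNA. Transcriptome Analysis Console was used, per the submitters' processing notes. How background was corrected, how arrays were normalized and probes summarised, and the genome build were not given in the sources used here. The deposited log2 values, 1 per probe set and array, ran from 2.81 to 19.93, with no sterol gene at the ceiling. They were used as deposited.

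GEO's array annotation, updated through RefSeq symbols of GRCm38.p6, gave 31258 of 65956 probe sets a single symbol, 1492 several and 33206 none. KO and WT (n = 3 each, separate mice) were compared over all probe sets with limma 3.58.1 in R 4.3.3 (lmFit, eBayes, genotype only, Benjamini-Hochberg). Gene pairs were compared within arrays by an exact 2-sided permutation test (scipy 1.17.1), but not for Srebf1 and Srebf2 or Mbtps1 and Mbtps2. The genes, lists and tests were chosen with earlier results of these data known. All members were named, with values by array for those that passed, the 10 largest differences and paired genes, and up to 4 genes of each other list with the smallest p. Olfactory receptor genes were chosen as a comparison after their values were known. The number of arrays limits the precision. Alternatives covered quantile normalization, centring, dim probe sets, eBayes with trend or robust, weights per array, a replicate block, 1-symbol probe sets, means of probe sets and each array left out.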

Additional observations from a re-analysis of the deposited data

How the results depend on the processing

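The 3 rises, of Insig1, Abca1 and Fdft1, passed under each alternative that kept all 6 arrays, and their number lay between 0 and 3 when an array was left out. The number of falls, 1 as deposited, was 0 after quantile normalization, 0 after centring, 0 with the replicate block, 2 with array weights (Hsd17b7 joined Fdps) and 0 without any 1 array. The median difference of the sterol genes became 0.27 after quantile normalization, 0.29 after centring and 0.23 without the dimmer probe sets, which left 16 of the genes. Small differences took the other sign after quantile normalization and after centring, in that order: Mvk 0.26 and 0.22, Idi1 0.17 and 0.14, Sqle 0.080 and 0.053, Lss 0.047 and 0.013, Msmo1 0.29 and 0.29, Nsdhl 0.21 and 0.29, Hsd17b7 0.10 and 0.063, Ebp 0.18 and 0.24, Stard4 0.25 and 0.23, Srebf2 0.21 and 0.22, and Cyp7b1 0.052 and 0.017, and also Dhcr7 after centring, at 0.057. These settings move the median probe set from -0.37 to -0.04 in both cases. Erlin1 turned to -0.11 when its probe sets were averaged. Related genes that fell numbered 1 with eBayes trend, 1 with trend and robust, 2 with array weights and 1 among 1-symbol probe sets, and those that rose lay between 0 and 27 with an array left out. Sqle minus Lss lay between -0.063 and 0.15 with an array left out. Deviations of arrays with the same replicate number correlated at 0.00, 0.20 and 0.14, and 3 of 6 arrays correlated best with their own number, so the numbers are not taken to pair the mice. With the replicate block 2960 probe sets rose and 8267 fell, against 3509 and 10282, and Fdps, at -0.47, had an adjusted p of 0.0732. The cause of these changes was not tested. Without scanner files, signal over background could not be examined.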

Other observations

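Where a related gene had several probe sets, these did not always move alike. Both probe sets of Scd1, the stearoyl-CoA desaturase gene, rose, by 4.45 and 6.56 (limma adjusted p = 0.0479 and 0.0354). For Erlin1, which encodes a sterol-binding protein of the endoplasmic reticulum, the brighter probe set differed by 0.52 and the other by -0.74, neither passing (adjusted p = 0.0952 and 0.0645). For the desaturase gene Fads2 the probe sets differed by 0.74 and -0.08 without passing. Of 8 measured lymphocyte markers 0 rose and 3 fell by limma's test. At an unadjusted p under 0.05, 0 were higher and 5 lower, where 31589 of 65956 probe sets passed. The median difference of these markers was -0.52, and it was -0.19 with 0 falls after centring. These genes were named after their values were seen.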
